A study of Homo sapiens with 4 samples.

Results

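The genes described here encode the BCL2 family, caspases, inhibitor of apoptosis (IAP) proteins and other regulators of apoptosis, 40 genes chosen by symbol from a list and found in all 4 deposited tables, each once among 28285 gene rows. By textbook roles, 12 were taken as pro-survival, 20 as pro-death and 8 as neither. The libraries came from H1, a widely used human embryonic stem cell line, here with eGFP knocked into GATA2, which encodes a transcription factor of early blood cells. Cre stands in every title, with no word in the labels on how it was used. Cells differentiated from this line had been sorted as CD34+, CD31+ and CD43-, and then by eGFP. GFP-positive cells, labelled hemogenic endothelium (vessel lining that gives rise to blood), had 2 libraries, and GFP-negative cells, labelled endothelial cells, had 2. The source names of all 4 samples carry hemogenic endothelium. The labels name 1 line and 1 knock-in genotype, and nothing in them tells whether replicates were separate cultures. P-values here thus reflect the spread among these libraries alone, which may be technical.

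In the mitochondrial pathway of apoptosis, BH3-only proteins sense stress and bind pro-survival BCL2 proteins, which otherwise hold the effectors BAX and BAK1 in check. Once the effectors open the outer mitochondrial membrane, cytochrome c leaves and joins APAF1 in the apoptosome, which activates the initiator caspase CASP9, while DIABLO relieves the block that IAP proteins put on caspases. Death receptors act through FADD and CASP8 instead, and CFLAR (FLIP) restrains CASP8. Levels are given in TPM, the unit inferred from the library sums, a length-corrected share of all transcripts on a fixed total, which allows levels of different genes to be compared but keeps no read depth. RNA shares do not show protein amounts, cleavage of caspases or death of cells. In bulk samples, fewer cells of a type and less RNA per cell cannot be told apart.

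As a check of the labels, GATA2 had 302 and 385 TPM in GFP-positive libraries and 80.2 and 87.3 TPM in GFP-negative libraries. The gene carries the reporter used for the sort, so this level and the sort are not independent. The endothelial genes CDH5 and KDR were present in both fractions, at 322 against 695 TPM and at 636 against 1024 TPM on average. All 15 endothelial markers had lower levels in GFP-positive libraries (summed level 4663 and 4932 TPM, against 8578 and 7697 TPM), with CD34 the only one that passed. All 11 tested erythroid markers had higher levels (482 and 280 TPM, against 80.8 and 68.8 TPM, summed over 15, of which AHSP was at 0 everywhere), with HBG2 the only one that passed. Megakaryocyte markers summed to 172 and 217 TPM against 99.5 and 113 TPM (PPBP at 0 everywhere), with 6 of 7 tested above 0 in fold change. Leukocyte markers summed to 618 and 645 TPM against 560.3 and 513 TPM (7 of 11 above 0), and mesenchymal markers to 2198 and 2038 TPM against 1584 and 1657 TPM (9 of 12 above 0). Pluripotent cell markers summed to 709.9 and 584 TPM against 505 and 475 TPM, a sum carried mostly by LIN28A (432 against 296 TPM on average), while 4 of 7 tested lay below 0. POU5F1 had 0.93 and 0.03 TPM in GFP-positive libraries and 9.68 and 5.88 TPM in GFP-negative libraries. PECAM1, the gene of CD31, was not analysed here. The part of these shifts in the values of apoptosis genes was not tested.

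None of the apoptosis genes passed the test between fractions. Limma was fitted over the 15425 genes that reached 1 TPM in 2 or more libraries. It called 69 (0.447%) at a Benjamini-Hochberg adjusted p of 0.05, and 0 of the 35 apoptosis genes that met this filter. The smallest adjusted p among them was 0.153, for CYCS. At an unadjusted p under 0.05 there were 6 of 35 (CYCS, BCL2L13, APAF1, BAD, BIK and BMF), 17.1% against a background of 14.1% of all genes tested. Groups did not overlap for 18 of 35 (51.4%, against 44.3%), 9 of them higher in GFP-positive cells (25.7%, against 22.8%) and 9 lower (25.7%, against 21.5%). An absolute log2 fold change of at least 1 was reached by BIK and APAF1, 2 of 35 (5.71%, against 12.4%). The shares by unadjusted p and by overlap are near the background, while that of large fold changes is below it and rests on 2 genes. The counts are thus no result about apoptosis genes as a set. Fold changes below are GFP-positive minus GFP-negative on the log2(TPM + 1) scale, with the standard error (SE) of the limma fit over all 4 libraries.

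**Figure D1:**
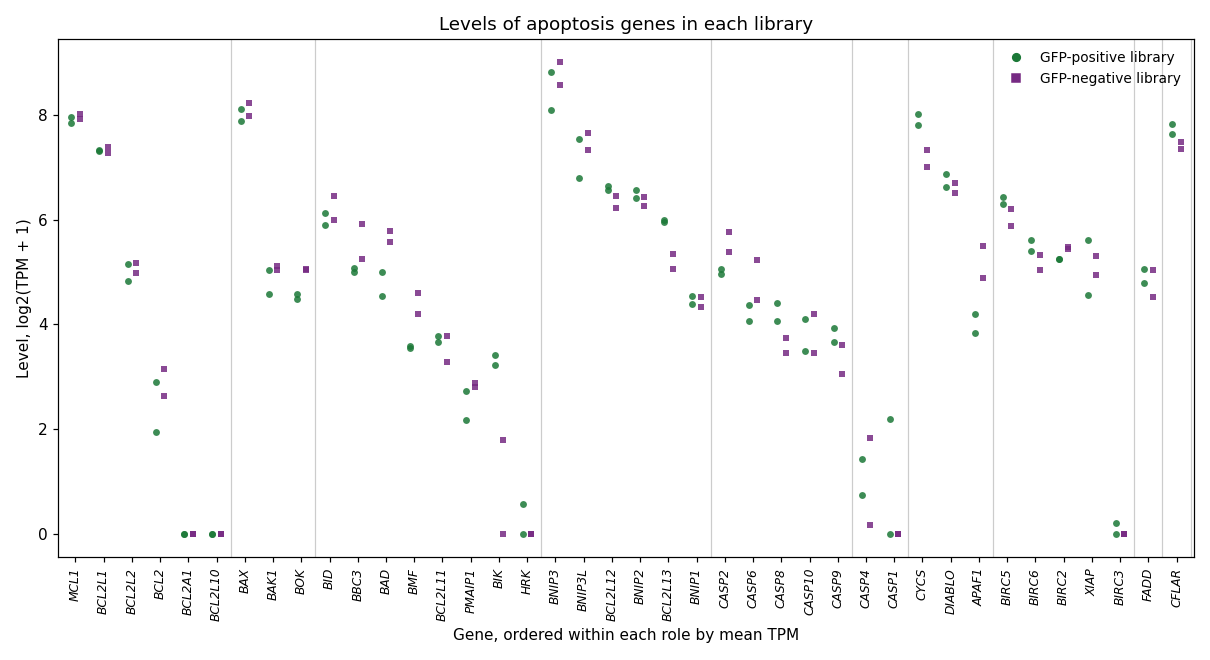
Level of each apoptosis gene in each library, as log2(TPM + 1), with GFP-positive libraries as circles and GFP-negative libraries as squares, and vertical lines between roles. Levels run from BNIP3 at the top to BCL2A1 and BCL2L10 at 0 in all 4 libraries, while the fractions lie close together for most genes.

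The apoptosis genes ranged from absent to among the most abundant transcripts. By mean over all 4 libraries, 8 were above 100 TPM (BNIP3, BAX, MCL1, CYCS, CFLAR, BNIP3L, BCL2L1 and DIABLO), 23 lay between 10 and 100 TPM, and 4 of the tested genes were below 10 TPM (BCL2, PMAIP1, BIK and CASP4). The remaining 5 were not tested. BCL2A1 and BCL2L10, pro-survival family members, were listed at 0 in all 4 libraries. HRK, a BH3-only gene best known from neurons, had 0.48 TPM in GFP-positive replicate 2 and was listed at 0 elsewhere. BIRC3, an IAP gene, had 0.15 TPM in GFP-positive replicate 1 and CASP1, the caspase that matures interleukin-1 beta, had 3.57 TPM there, and both were listed at 0 in the other libraries. Among all genes tested, the median tested apoptosis gene stood at the percentile 67.1 of mean TPM, a description of genes that had passed a filter on level.

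Of the 35 tested genes, CYCS, the gene of cytochrome c, APAF1, its partner in the apoptosome, and BNIP3, the most abundant one, are the genes that the account below returns to most, and their promoters are shown for that reason. The windows run from 250 bases before to 50 after the transcript start and come from RefSeq on GRCh38.p14, whose table held 32 of the 40 genes. Capitals mark the core of the hypoxia response element, ACGTG or GCGTG on either strand, overlapping matches joined. The CYCS window is chr7:25125211-25125510 (minus strand), that of APAF1 is chr12:98645040-98645339 (plus strand) and that of BNIP3 is chr10:131981874-131982173 (minus strand), each printed 5′ to 3′ in the sense of its gene.
CYCS: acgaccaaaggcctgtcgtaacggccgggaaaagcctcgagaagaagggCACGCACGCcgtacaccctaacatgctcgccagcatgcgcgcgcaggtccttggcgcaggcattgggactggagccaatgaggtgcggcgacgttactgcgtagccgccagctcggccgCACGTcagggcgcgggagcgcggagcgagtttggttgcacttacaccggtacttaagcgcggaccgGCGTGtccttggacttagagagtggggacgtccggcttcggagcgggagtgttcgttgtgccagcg
APAF1: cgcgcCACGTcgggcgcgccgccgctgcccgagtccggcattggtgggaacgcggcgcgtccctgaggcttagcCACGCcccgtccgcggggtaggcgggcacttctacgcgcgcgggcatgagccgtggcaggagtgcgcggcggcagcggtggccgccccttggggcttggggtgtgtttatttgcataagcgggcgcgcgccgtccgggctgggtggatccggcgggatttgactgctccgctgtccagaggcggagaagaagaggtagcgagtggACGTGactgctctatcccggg
BNIP3: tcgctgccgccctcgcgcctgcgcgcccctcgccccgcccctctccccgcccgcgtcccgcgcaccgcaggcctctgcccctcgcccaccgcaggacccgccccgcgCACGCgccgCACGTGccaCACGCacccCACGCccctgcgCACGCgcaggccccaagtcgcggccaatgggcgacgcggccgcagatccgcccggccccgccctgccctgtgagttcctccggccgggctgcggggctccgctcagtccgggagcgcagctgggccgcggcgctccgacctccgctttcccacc
The core had 4 matches in the CYCS window, 3 in that of APAF1 and 6 in that of BNIP3. In BNIP3 the matches at -134 and -133 are a single CACGTG, counted once on each strand. It is a short motif, held by 48.4% of all 35116 windows of this length and by 26 of the 32 apoptosis genes with one (81.2%), whose median GC content was 65.3% against 58.7% in all windows. The GATA motif (AGATAA or TGATAA, either strand) was in 8 of 32 windows (25%), against 16.3% of all, and in none of the 3 shown. A match is no evidence of binding.

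The pro-survival BCL2 genes had nearly the same makeup in both fractions. MCL1, a short-lived protein on which many blood progenitors depend, had 250.1 and 229 TPM in GFP-positive libraries and 242 and 259 TPM in GFP-negative libraries. BCL2L1, which encodes BCL-XL, had 161 and 159 TPM, against 154 and 167 TPM. In both genes the groups overlapped, and the 95% interval of the log2 fold change of MCL1 ran from -0.40 to 0.27. BCL2L2 (BCL-w) had 27.6 and 34.4 TPM, against 35.2 and 30.6 TPM, and shares exons with a readthrough transcript, BCL2L2-PABPN1. BCL2 itself was low, with 2.82 and 6.44 TPM in GFP-positive libraries and 5.18 and 7.88 TPM in GFP-negative libraries. The GFP-positive replicates of BCL2 differed 2.28-fold, more than the fractions did. MCL1 made up 56.7% and 53.4% of the summed TPM of these 6 genes in GFP-positive libraries, against 55.5% and 55.8% in GFP-negative libraries. BCL2L1 made up 36.5% and 37.1%, against 35.2% and 35.9%. The sum was 441 and 428 TPM, against 436 and 464 TPM.

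Of the effectors, which form the pores of the outer mitochondrial membrane, BAX was by far the most abundant. It had 278 and 235 TPM in GFP-positive libraries and 301 and 251 TPM in GFP-negative libraries, and the groups overlapped (log2 fold change -0.11 ± 0.16, SE). BAK1 had 31.8 and 22.9 TPM, against 31.7 and 33.5 TPM. BOK, a less typical family member, had 21.5 and 23.0 TPM, against 32.1 and 32.3 TPM. Its groups did not overlap, yet it did not pass (-0.52 ± 0.24, SE; limma adjusted p = 0.41). BAX supplied 83.9% and 83.7% of effector TPM in GFP-positive libraries and 82.5% and 79.3% in GFP-negative libraries. The pro-survival BCL2 sum was 1.33 and 1.52 times the effector sum in GFP-positive libraries and 1.19 and 1.46 times in GFP-negative libraries, so the groups overlapped.

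BH3-only genes, as a sum, had lower levels in GFP-positive cells, with 160.4 and 158 TPM against 216 and 207 TPM. Against the pro-survival BCL2 sum this was a ratio of 0.363 and 0.370 in GFP-positive libraries and 0.496 and 0.445 in GFP-negative libraries. Neither sum nor ratio was tested, since the genes and the sum were chosen with results of these data known. Among the 7 tested genes, none passed, the median log2 fold change was -0.39 (0.02 over all genes tested), and groups did not overlap in the lower direction for 4 (57.1%, against 21.5% of all genes tested: BAD, BMF, PMAIP1 and BBC3) and in the higher direction for 1 (14.3%, against 22.8%: BIK).

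BAD, whose binding to BCL-XL is switched off by growth factor signalling, had 31.2 and 22.3 TPM in GFP-positive libraries and 53.9 and 46.7 TPM in GFP-negative libraries. Both GFP-positive values lay below both others, and the difference (-0.90 ± 0.26, SE) did not pass (limma adjusted p = 0.208). Its exons overlap GPR137 on the opposite strand, which had 27.9 and 46.3 TPM against 32.6 and 36.8 TPM. BMF, linked to detachment from matrix and cytoskeleton, had 10.9 and 10.6 TPM in GFP-positive libraries and 17.4 and 23.2 TPM in GFP-negative libraries (-0.84 ± 0.32, SE; limma adjusted p = 0.326). BBC3 (PUMA), which binds all the main pro-survival BCL2 proteins, had 32.8 and 30.9 TPM, against 37.2 and 59.3 TPM, so that most of its difference (-0.55 ± 0.28, SE; limma adjusted p = 0.453) came from GFP-negative replicate 2 (-0.22 without it, -0.87 with replicate 1 of that fraction left out). PMAIP1 (NOXA), which binds MCL1, had 5.60 and 3.52 TPM, against 5.98 and 6.32 TPM. These 4 genes lay on 1 side, but BIK lay on the other.

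BIK, a BH3-only protein of the endoplasmic reticulum, had 9.60 and 8.28 TPM in GFP-positive libraries, and 2.46 TPM and a listed 0 in the GFP-negative libraries. At 2.41 ± 0.69 (SE), its log2 fold change was the highest among the tested apoptosis genes, and it did not pass (limma adjusted p = 0.208). At such low levels its size depended on the pseudocount, 4.16 with 0.1 and 1.19 with 5, and it was 1.52 without GFP-negative replicate 2. BID, which CASP8 cleaves to link death receptors to mitochondria, was the most abundant BH3-only gene, with 58.6 and 69.4 TPM against 86.4 and 62.4 TPM. BCL2L11 (BIM), which is restrained by growth factor signalling, had 11.7 and 12.8 TPM, against 12.7 and 8.70 TPM. For both, the groups overlapped.

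**Figure D2:**
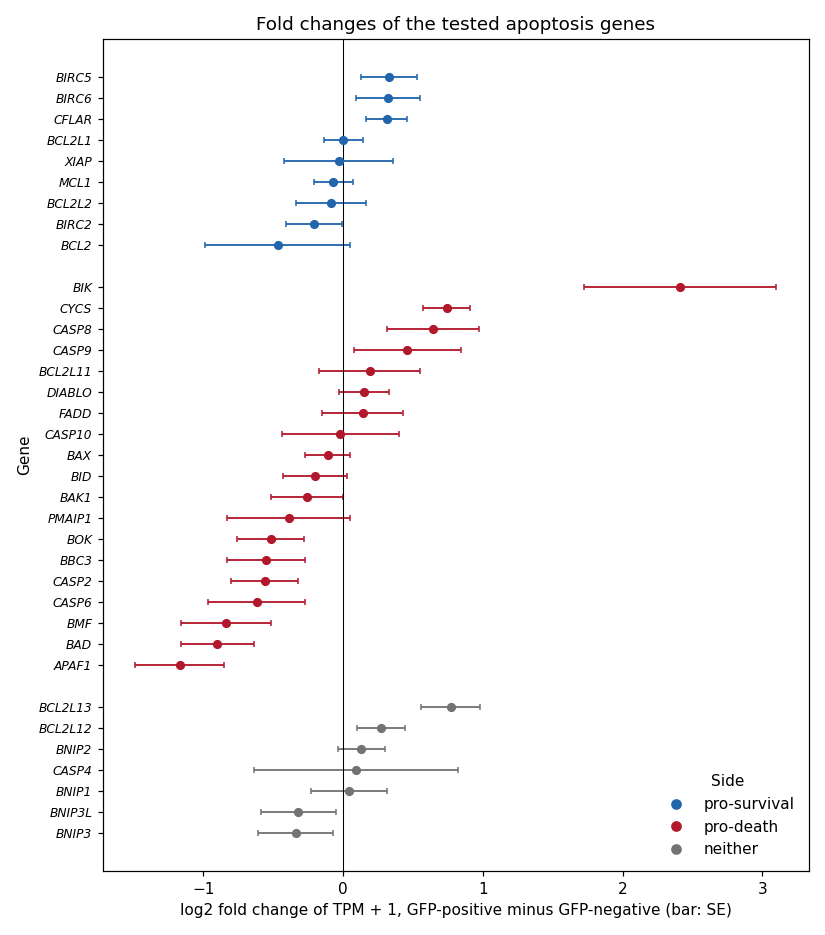
Log2 fold change of TPM + 1, GFP-positive minus GFP-negative, for the 35 tested apoptosis genes, with bars for the limma standard error and colours for the side assigned from textbook roles. Most points lie within 0.5 of 0 (24 of 35), with BIK at 2.41 and APAF1 at -1.17 as the extremes, and none passed.

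The apoptosome genes CYCS and APAF1 lay on opposite sides. CYCS had 260.2 and 223 TPM in GFP-positive libraries and 161 and 128 TPM in GFP-negative libraries, means of 241.6 ± 26.3 and 144.6 ± 23.0 TPM (SD, n = 2 each). Its log2 fold change was 0.74 ± 0.17 (SE; 95% interval 0.31 to 1.17; limma adjusted p = 0.153). APAF1 had 17.4 and 13.3 TPM in GFP-positive libraries and 44.2 and 28.4 TPM in GFP-negative libraries, means of 15.4 ± 2.87 and 36.3 ± 11.1 TPM (SD, n = 2 each). Its log2 fold change was -1.17 ± 0.32 (SE; 95% interval -1.96 to -0.38; limma adjusted p = 0.202). For neither gene did the groups overlap, and neither passed. The ratio of CYCS to APAF1, chosen after the values were seen and so without a test, was 14.96 and 16.7 in GFP-positive libraries and 3.64 and 4.51 in GFP-negative libraries. DIABLO, the IAP antagonist released with cytochrome c, had 97.6 and 117 TPM, against 103 and 89.8 TPM, with overlapping groups.

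Both genes carry a limit of counting. GENCODE v29 names 40 pseudogenes after CYCS (ENSG00000172115; GRCh38, chromosome 7, 25120091 to 25125361, minus strand), with which its reads may be shared. APAF1 (ENSG00000120868; GRCh38, chromosome 12, 98645141 to 98735433, plus strand) shares exonic positions with ANKS1B on the opposite strand. ANKS1B had 13.0 and 25.4 TPM in GFP-positive libraries and 2.93 and 1.03 TPM in GFP-negative libraries, the opposite direction to APAF1. The sources used here do not say whether counting used strand. Without strand, reads of the shared stretch cannot be told apart, and what this did to either value was not tested. In all, 19 of the 40 genes share exonic positions with a gene on the opposite strand.

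**Figure D3:**
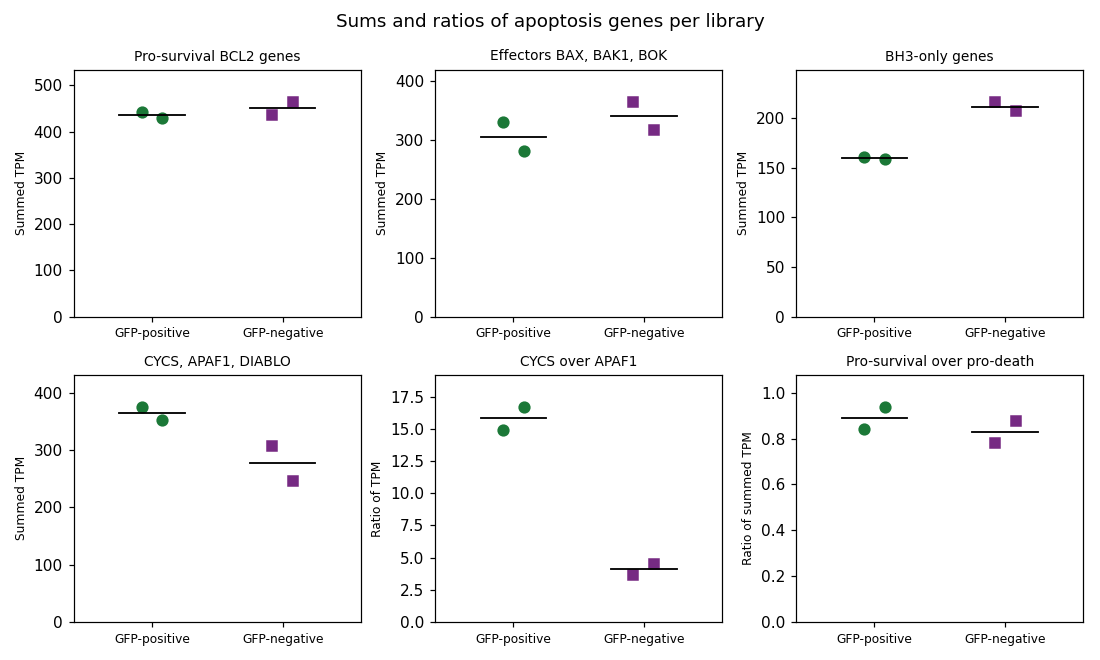
Summed TPM or ratio in each library, with GFP-positive libraries on the left, GFP-negative libraries on the right and lines at the group means (n = 2 each). The groups are apart for BH3-only genes (160.4 and 158 against 216 and 207 TPM) and for CYCS over APAF1. They are also apart, in the higher direction, for the sum of CYCS, APAF1 and DIABLO (375 and 353 against 308 and 247 TPM). They overlap for pro-survival BCL2 genes, for effectors and for the ratio of all pro-survival to all pro-death genes.

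The caspases were of moderate or low level. CASP2, an initiator linked to DNA damage and centrosome number, had 30.2 and 32.3 TPM in GFP-positive libraries and 40.7 and 53.3 TPM in GFP-negative libraries (log2 fold change -0.56 ± 0.24, SE; limma adjusted p = 0.365; -0.37 without GFP-negative replicate 2). CASP6, an executioner, had 15.8 and 19.8 TPM, against 21.0 and 36.4 TPM. CASP9, the initiator of the apoptosome, had 11.6 and 14.2 TPM, against 11.2 and 7.26 TPM. In each of these 3 genes the groups did not overlap, CASP2 and CASP6 lower and CASP9 higher in GFP-positive cells, and none passed. With CASP8, given below, groups did not overlap for 4 of the 5 tested apoptotic caspases (80%, against 44.3% of all genes tested). They lay on both sides, and 5 genes are too few for a result about caspases. CASP4, which senses bacterial lipopolysaccharide inside cells, had 0.67 and 1.70 TPM, against 0.12 and 2.54 TPM.

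CFLAR, CASP10 and CASP8 lie in this order on chromosome 2 in GENCODE v29 (GRCh38, from 201116104 to 201287711), all on the plus strand. CFLAR had 198 and 228 TPM in GFP-positive libraries and 163 and 179 TPM in GFP-negative libraries (log2 fold change 0.31 ± 0.15, SE; limma adjusted p = 0.42). CASP8, the initiator that it restrains, had 20.2 and 15.7 TPM, against 9.92 and 12.4 TPM. For both, each GFP-positive value lay above each GFP-negative value, and neither passed. CASP10, a close relative of CASP8 that rodents lack, had 16.1 and 10.3 TPM, against 9.89 and 17.3 TPM, with overlapping groups. The level of CFLAR was 9.82 and 14.5 times that of CASP8 in GFP-positive libraries and 16.5 and 14.4 times in GFP-negative libraries, with overlapping groups. The gene-level value of CFLAR does not separate its long and short isoforms. FADD, the adapter that brings CASP8 to death receptors, had 26.6 and 32.4 TPM, against 22.1 and 31.9 TPM.

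A list of 16 genes for death receptors, ligands, adapters and signalling proteins of the same pathway, such as RIPK1, TRAF2 and CYLD, had 15 tested members, of which 0 were called in either direction, 3 were above and 12 below 0, and the median log2 fold change was -0.51 (against 0.02 for all genes tested). TNFRSF10D, a decoy receptor for the ligand TRAIL, had 44.8 and 38.6 TPM in GFP-positive libraries and 93.7 and 90.9 TPM in GFP-negative libraries (-1.13 ± 0.19, SE; limma adjusted p = 0.0756). TNFSF10, which encodes TRAIL, had 0.40 TPM and a listed 0, against 2.23 and 4.39 TPM. TNFRSF25, a death receptor, had 18.2 and 53.7 TPM, against 76.9 and 56.9 TPM. Its log2 fold change was -1.05, and -0.30 without GFP-positive replicate 1.

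Among the IAP genes, BIRC5 (survivin), which also acts in mitosis, was the most abundant, with 85.5 and 77.9 TPM in GFP-positive libraries and 72.9 and 57.5 TPM in GFP-negative libraries. The groups did not overlap, and the gene did not pass (0.33 ± 0.20, SE; limma adjusted p = 0.527). Leaving out GFP-negative replicate 2 put its log2 fold change at 0.16, and leaving out replicate 1 of that fraction put it at 0.50. Beside it, all 20 of a list of mitotic genes had a fold change above 0, with a median of 0.47 and a summed level of 2437 and 1873 TPM in GFP-positive libraries against 1720 and 1411 TPM in GFP-negative libraries. None of the 20 was called. UBE2C, which directs mitotic proteins to degradation, had 281 and 236 TPM, against 176 and 176 TPM (0.55 ± 0.15, SE; limma adjusted p = 0.198), and CENPF, a kinetochore protein, and CDK1, the mitotic kinase, came next by p. BIRC5 and the mitotic sum put the 4 libraries in the same order, as did 10 of the 20 genes singly. For this order, as for that of BNIP3 below, the share among all genes tested is not given here. The part of cell cycle in the BIRC5 value was not tested.

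XIAP, the IAP that inhibits caspases most directly, had 22.7 and 48.1 TPM in GFP-positive libraries and 38.3 and 29.8 TPM in GFP-negative libraries. The groups overlapped, the GFP-positive replicates differed 2.12-fold, and the log2 fold change of -0.03 had a 95% interval of -0.97 to 0.91. BIRC2 (cIAP1), a ubiquitin ligase of TNF receptor signalling, had 37.2 and 37.0 TPM, against 42.2 and 43.7 TPM. Its neighbour on chromosome 11, BIRC3 (cIAP2), was at or near 0, as given above. BIRC6, a very large IAP protein, had 47.9 and 41.4 TPM, against 31.8 and 39.4 TPM. Neither BIRC2 nor BIRC6 had overlapping groups, on opposite sides, and neither passed. BIRC3 is a target of the transcription factor NF-kB, and of 12 NF-kB target genes 11 were tested and 0 called, with 3 above and 8 below 0, a median log2 fold change of -0.24 and a summed level of 158 and 154 TPM in GFP-positive libraries against 199 and 199 TPM in GFP-negative libraries (CXCL8 at 0 everywhere). TNFAIP3 (A20), which limits NF-kB signalling, had 15.4 and 10.2 TPM, against 29.1 and 32.0 TPM (-1.22 ± 0.31, SE; limma adjusted p = 0.177). NFKBIE and CCL2 came next by p, CCL2 being listed at 0 in both GFP-positive libraries, against 3.22 and 2.05 TPM in GFP-negative libraries.

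The other BCL2-related genes include mitophagy receptors, which mark mitochondria for removal. BNIP3, a target of hypoxia signalling, was the most abundant apoptosis gene, with 451 and 272 TPM in GFP-positive libraries and 514 and 383 TPM in GFP-negative libraries. BNIP3L (NIX), which clears mitochondria from maturing red cells, had 187 and 109.8 TPM, against 200.5 and 160.4 TPM. In both genes GFP-positive replicate 2 was lowest and GFP-negative replicate 1 highest, the groups overlapped, and replicates differed by up to 1.70-fold. The summed level of 20 hypoxia-induced genes put the libraries in the same order, with 14388 and 10678 TPM in GFP-positive libraries and 16002 and 12695 TPM in GFP-negative libraries. ENO1, PGK1 and LDHA, which encode glycolytic enzymes, supplied 87.1% of it. The other 17 genes summed to 1605 and 1489 TPM in GFP-positive libraries and 1979 and 1842 TPM in GFP-negative libraries, another order, and by single gene 3 of the 20 had the order of BNIP3 (PGK1, ANKRD37 and ENO1). The part of oxygen supply in these values was not tested. Of the 20 genes, 0 were called, 3 lay above and 17 below 0, and the median log2 fold change was -0.26. DDIT4, an inhibitor of mTOR signalling, had 101 and 71.6 TPM, against 179 and 146 TPM (limma adjusted p = 0.157), and NDRG1, a stress-response gene, had 85.9 and 103 TPM, against 148 and 218 TPM (limma adjusted p = 0.159). PFKFB3 was the third of smallest p. GENCODE v29 names 39 pseudogenes after BNIP3, with which its reads may be shared.

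**Figure D4:**
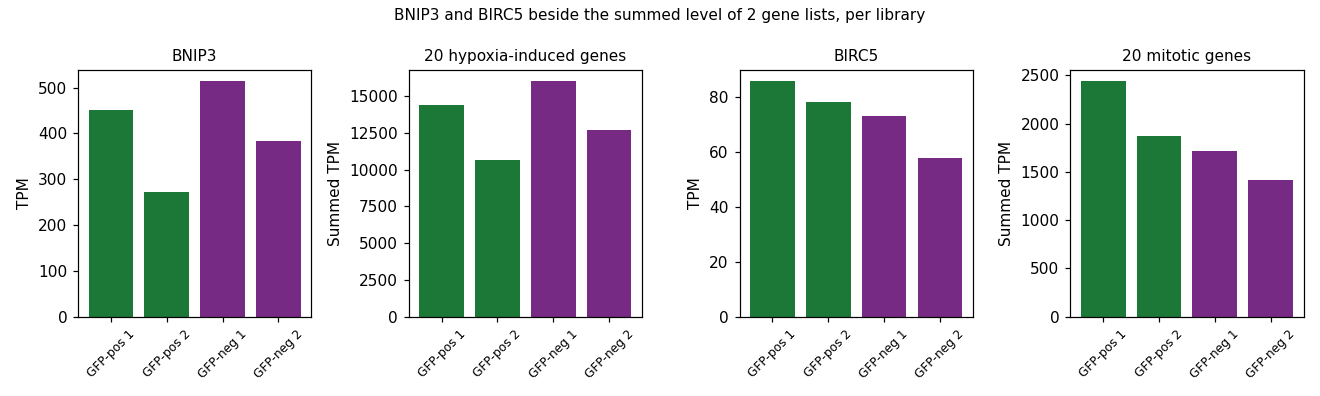
TPM of BNIP3 and BIRC5 and the summed TPM of 20 hypoxia-induced and 20 mitotic genes, in each library, with GFP-positive replicates 1 and 2 left of GFP-negative replicates 1 and 2. BNIP3 follows the order of the hypoxia-induced sum, of which 3 glycolytic genes supplied 87.1%, and BIRC5 that of the mitotic sum.

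BCL2L13, a mitochondrial protein that also acts as a mitophagy receptor, had 60.8 and 62.8 TPM in GFP-positive libraries and 32.5 and 39.4 TPM in GFP-negative libraries. These groups did not overlap, with means of 61.8 ± 1.39 and 35.9 ± 4.87 TPM (SD, n = 2 each), but the log2 fold change of 0.77 ± 0.21 (SE; 95% interval 0.26 to 1.28) did not pass (limma adjusted p = 0.194). BCL2L12, described as an inhibitor of apoptosis in brain tumours, had 98.5 and 94.4 TPM, against 74.0 and 86.1 TPM. Its exons overlap IRF3 on the opposite strand, which had 104 and 94.5 TPM against 80.9 and 57.8 TPM, the same direction. BNIP2 had 84.0 and 93.5 TPM, against 76.1 and 85.6 TPM, and BNIP1, which acts in membrane traffic of the endoplasmic reticulum, had 19.9 and 22.3 TPM, against 19.2 and 22.0 TPM.

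Of 15 mitochondrial and co-chaperone partners of BCL2 proteins, 0 were called, 5 lay above and 10 below 0, and the median was -0.07. FBXW7, part of a ubiquitin ligase that marks MCL1 for degradation, had 13.1 and 13.4 TPM, against 25.6 and 22.7 TPM (-0.82 ± 0.28, SE; limma adjusted p = 0.286). USP9X, which removes ubiquitin from MCL1, had 36.3 and 30.5 TPM, against 47.5 and 41.1 TPM, and PGAM5 was the third of smallest p. MCL1 RNA overlapped between fractions, but FBXW7 and USP9X act on MCL1 protein, which was not measured here.

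Set against each other as sums over all listed genes, pro-survival and pro-death genes had overlapping ratios in the fractions. Pro-survival genes summed to 833 and 860.2 TPM in GFP-positive libraries and 785 and 813 TPM in GFP-negative libraries. Pro-death genes summed to 987 and 917 TPM, against 1003 and 929 TPM. CYCS alone held 260.2 and 223 TPM of these sums, against 161 and 128 TPM, and a ratio without CYCS alone was not computed. The ratio of the sums was 0.844 and 0.938 in GFP-positive libraries and 0.782 and 0.876 in GFP-negative libraries. The groups overlapped, and the difference of 0.10 on the log2 scale was no larger than the spread between replicates (0.11, pooled SD). The size of this difference depended on the genes summed. It was 0.20 with BCL2 family members only, a choice that leaves out CYCS, APAF1, caspases and IAP genes. With that choice each GFP-positive ratio lay above each GFP-negative ratio, the nearest pair close together, and this was not tested. By single genes, the 9 tested pro-survival genes had fold changes with a median of -0.03, 3 above and 6 below 0, and a range of -0.47 to 0.33. The 19 tested pro-death genes had a median of -0.20, with 7 above and 12 below 0, over a wider range of -1.17 to 2.41. Groups did not overlap in the higher direction for 3 of the 9 pro-survival genes (33.3%: BIRC5, BIRC6 and CFLAR) and 4 of the 19 pro-death genes (21.1%: BIK, CASP8, CASP9 and CYCS), against 22.8% of all genes tested. In the lower direction this held for 1 pro-survival gene (11.1%: BIRC2) and 8 pro-death genes (42.1%: BOK, BAD, BMF, PMAIP1, BBC3, CASP2, CASP6 and APAF1), against 21.5% of all genes tested. The difference between the 2 sides was not tested. Of the pro-death genes at an unadjusted limma p under 0.05, CYCS and BIK had higher levels in GFP-positive cells, and BAD, BMF and APAF1 lower ones.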

How the data were processed

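RNA of 4 libraries (2 GFP-positive, 2 GFP-negative) was sequenced by the authors. Groups and replicate numbers came from the titles. The deposited tables hold 1 value per gene under headers that name no unit. The deposited values were taken as TPM, made by the authors, from their sums of 996323.64 to 997292.9 per library and from RSEM in the processing notes. Per the labels' protocols, total RNA went into an Illumina TruSeq RNA kit. The submitters' processing notes name Bowtie, RSEM, hg19 and mm10, without versions or roles, and the annotation is not given in the sources used here. Read depth, and so counting error, is unknown.

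The members and lists were chosen with earlier results of these data known. Each of the 40 symbols had 1 row. Limma 3.58.1 (R 4.3.3) was fitted to log2(TPM + 1) with a variance trend. Genes had to reach 1 TPM in 2 or more libraries, and p-values (two-sided) were adjusted by Benjamini-Hochberg over all of them. Fold changes on this scale understate those of low genes. The script was tested on simulated data. Fold changes or single statistics are given for the member of highest mean TPM in each role, those with an absolute log2 fold change of at least 1 and the 10 of smallest p. Other fold changes, except that of XIAP, appear only in the plot and as ranges. Of other lists the genes that passed and the 3 of smallest p are named. Some genes and lists are not reported here. Alternatives were pseudocounts of 0.1 and 5, other filters, no variance trend, a replicate block, upper quartile and trimmed-mean (TMM) scaling, and each library left out.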

Additional observations from a re-analysis of the deposited data

How the results depend on the processing

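No member was called by limma in any of 12 alternatives except the replicate block, which called 1 member, CYCS (adjusted p = 0.0242), and 596 genes in all. The deviations of same-numbered libraries had a correlation of 0.0719 across genes, and the labels do not say what a number stands for, so the block is not taken as a pairing. Over all genes limma called 69, but 0 with a pseudocount of 0.1, 0 without a filter on low values, 0 without a variance trend, and 164 with a mean of at least 5 TPM. With each library left out it called 18 to 65 genes, 18 without GFP-negative replicate 1. Members at an unadjusted p under 0.05 numbered 4 to 7 with a library left out (4 without GFP-negative replicate 1) and 6 to 8 in the other alternatives. Unadjusted p-values under 0.05 numbered 2101 genes with a pseudocount of 0.1, 2230 without a filter and 2072 without a trend.

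The difference in the log2 ratio of summed pro-survival to pro-death TPM (0.10) ranged from 0.02 to 0.19 with a library left out. Other choices of genes were also tried, none of which left out CYCS alone. It was 0.13 without the member of highest mean TPM on each side (MCL1 and BAX), 0.08 without BIRC5 and 0.20 with BCL2 family members only. A mean of log2(TPM + 1) over members in place of sums gave 0.07. The ratio was not recomputed under the pseudocounts, filters, trend, block or scaling. The pro-death median of -0.20 ranged from -0.32 to -0.04 with a library left out, and the pro-survival median of -0.03 from -0.02 to 0.07. Of 17 members followed through the alternatives, 12 kept their sign. The others were BAX (0.01 to 0.02 where it turned), BID (0.03), BNIP3 (0.03), CASP4 (-0.01 with a pseudocount of 5, -0.74 to 0.44 with a library left out) and FADD (-0.12). With a library left out, these ran from -0.24 to 0.02 for BAX, from -0.43 to 0.03 for BID, from -0.70 to 0.03 for BNIP3 and from -0.12 to 0.40 for FADD. Their causes were not tested. Of 21 genes of the other lists followed likewise, 0 changed sign, and DDIT4, NDRG1 and TNFRSF10D passed with the replicate block alone (adjusted p = 0.0174, 0.0161 and 0.0171). Where a library was left out, its group had 1 library, assumed to vary like the other group. TPM keeps no depth, so the precision of values of a few TPM (BIK, BCL2, PMAIP1 and CASP4) could not be given.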
